A study of Ovis aries with 40 samples.

Results

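Proximal and distal lung of the sheep fetus were compared at 120 days of gestation. The comparison held 8 libraries of the 40 in the series, chosen by the region and day in their labels, with no measured value used. They came from 4 animals, 2 wild type (WT) and 2 *CFTR*-/- (CF), and each animal gave 1 proximal and 1 distal library. All were American Romney sheep. The WT fetuses came from standard breeding, and the CF fetuses were made by somatic cell nuclear transfer from a male fetal fibroblast line targeted in *CFTR* exon 2, so that they share 1 donor line and genotype cannot be told apart from the way the animals were produced. The WT animal labels, SF1718-1 and SF1718-2, differ only in their last digit, and the CF labels are SF139 and SF1422. Bulk RNA was sequenced from whole pieces of frozen lung, in which fewer cells of a type and less RNA per cell cannot be told apart.

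The conducting airways carry ciliated, secretory and basal cells, and in larger branches they are stiffened by cartilage and surrounded by smooth muscle. The gas exchange region is lined by thin alveolar type 1 cells and by type 2 cells, which make surfactant. Late in gestation the distal lung forms saccules while type 2 cells fill with surfactant. Fibroblasts of the airway and vessel sheaths differ from those of the alveolar walls, and *HOX* genes, which encode transcription factors of position along the body axis, mark mesenchyme of different places.

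The libraries held 24670355 to 40601998 counted reads in WT and 86480033 to 101116915 in CF. *CFTR* was read at 10.9 to 13.2 CPM (reads of a gene scaled to library size) in the 4 WT libraries and at 4.97 to 11.0 CPM in the 4 CF libraries, and a change inside 1 exon need not move this total. Region was tested within animals, with the animal as a block, by edgeR's quasi-likelihood test over 17739 genes that passed a filter on low counts. The filter used the 2 regions as groups of 4. A gene counted as differentially expressed (DEG) when its Benjamini-Hochberg adjusted p was at most 0.05 and its regions differed by at least 0.58 on the log2 scale. Positive differences are higher in proximal lung. Each SE is the size of the fitted log2 difference divided by the square root of edgeR's F statistic. It is not the SE of the differences of single pairs, which can be larger. The labels name separate animals, and p-values with 4 pairs measure the spread between these animals only.

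Both libraries of CF replicate 2 stood apart. On the first principal component of log2 CPM, which held 53.3% of the variance, its proximal library lay at 181 and its distal library at 30.1, while the other 6 lay between -50.4 and -20.1. In the proximal library, mitochondrial genes held 0.942% of reads, against 1.62% to 2.26% in the other 7. The difference between its regions also followed gene length. With genes split into 5 equal groups from short to long, the median log2 differences were 0.59, 0.18, -0.05, -0.24 and -0.35. In the other 3 animals every such median lay between -0.08 and 0.09. From the shortest to the longest group they went from -0.06 to 0.06 in WT replicate 1 and from -0.004 to 0.09 in WT replicate 2. In CF replicate 1 they went from 0.09 to -0.08, the same direction as in CF replicate 2. For several genes that separate the regions at other ages or in the other animals, the library labelled CF replicate 2 distal held levels like those of proximal lung, as given below. The study checked RNA quality by spectrophotometer, gel and TapeStation before it chose samples, and defined both regions in a drawing not used here. Quality values of single samples are not given in the sources used here, and a direction drawn from this animal rests on its labels. Levels or differences are therefore given animal by animal for most genes described, means over 4 pairs include CF replicate 2, and with the length trend removed the count of DEGs over the 4 animals, given below, was also 0. The part of the mitochondrial share and of the place of the piece in the results was not tested.

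**Figure D1:**
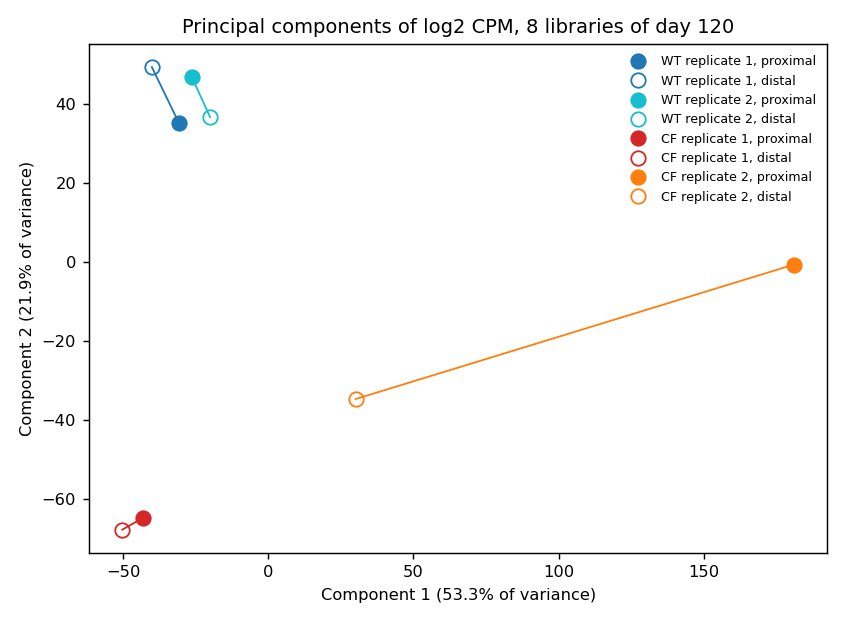
Position of the 8 libraries on the first and second principal components of log2 CPM (scores without unit), with filled points for proximal lung, open points for distal lung and a line joining the regions of 1 animal. CF replicate 2 proximal lay at 181 on component 1, the regions of CF replicate 1 lay close together, and component 2 (21.9% of variance) held the WT libraries between 35.3 and 49.3 and the CF libraries at -0.69 or below.

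Regions of 1 animal differed by amounts similar to those between animals, except in CF replicate 1, where they were closer. The root mean square of the log2 difference between proximal and distal lung, over all genes tested, was 0.42 in CF replicate 1, 0.78 in WT replicate 2, 0.95 in WT replicate 1 and 1.44 in CF replicate 2. The 2 WT animals differed by 0.87 in proximal and 0.97 in distal lung, and the 2 CF animals by 1.92 and 0.95. WT replicate 1 proximal was closer to WT replicate 2 distal (0.82) than to its own distal library (0.95). Among 13983 genes averaging at least 1 on the log2 CPM scale, 89 differed between regions by 1 log2 unit or more in CF replicate 1, 501 in WT replicate 2, 558 in WT replicate 1 and 3405 in CF replicate 2. Across the 17739 genes, the differences of any 2 animals correlated with a Pearson's r between -0.10 and 0.13, and across the 13983 genes between -0.25 (WT replicate 1 with CF replicate 1) and 0.18 (WT replicate 1 with CF replicate 2), a description over genes that share their libraries.

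No DEG was found between proximal and distal lung (0 of 17739, 0%), and the smallest adjusted p by edgeR was 0.91. At an unadjusted p under 0.05 there were 268 genes (1.51%). DESeq2 called 5 (0.0282%), and limma voom called 0. In all 4 animals 1197 genes (6.75%) were higher and 1045 (5.89%) lower in proximal lung. All 4 proximal libraries lay above all 4 distal libraries in 19 genes (0.107%) and below them in 44 (0.248%). None of the 648 different genes of the fixed cell type, process and pathway lists that could be tested was a DEG.

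The 5 genes called by DESeq2 were *TFF2*, *MYOC*, *DPT* and *NAPSA*, all higher in proximal lung, and *LOC105606599*, lower in proximal lung. They are described from here on with other genes that had the same sign in 4 pairs, and were chosen after their values were seen.

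*TFF2*, which encodes a trefoil peptide secreted with mucus, was at 43.2 CPM in proximal and 17.8 CPM in distal lung of WT replicate 1 and at 28.6 and 11.7 CPM in WT replicate 2. The same pairs of values were 30.2 and 20.2 CPM in CF replicate 1 and 217 and 76.6 CPM in CF replicate 2. Within each animal proximal lung was higher, but the regions overlapped between animals because both libraries of CF replicate 2 were high. The log2 difference was 1.16 ± 0.17 (SE, 4 pairs), with an adjusted p of 0.91 by edgeR and 7.38e-04 by DESeq2. *MYOC*, which encodes the secreted protein myocilin, was at 16.5, 27.5, 14.2 and 49.6 CPM in proximal lung of WT replicates 1 and 2 and CF replicates 1 and 2, and at 3.35, 7.14, 7.05 and 19.7 CPM in distal lung in the same order. Its log2 difference was 1.64 ± 0.25 (SE), the adjusted p by edgeR 0.91 and by DESeq2 8.16e-05.

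*DPT*, which encodes the matrix protein dermatopontin of connective tissue, was at 34.3, 81.6, 8.50 and 59.6 CPM in proximal lung in that order, and at 16.5, 46.6, 5.06 and 18.4 CPM in distal lung. CF replicate 1 held least in both regions, and the log2 difference was 1.08 ± 0.19 (SE). *POSTN*, the matrix protein periostin, followed with 33.2, 42.6, 11.96 and 59.4 CPM in proximal and 7.02, 21.9, 8.73 and 15.2 CPM in distal lung. The WNT antagonist *SFRP4* differed by 2.55 and 2.42 in WT and 0.61 and 1.11 in CF (mean 1.66 ± 0.44, SE), and *FRZB*, another, by 0.34, 1.33, 0.88 and 1.41 (1.00 ± 0.35). *PRRX1*, a transcription factor of mesenchyme, differed by 1.08, 1.15, 0.57 and 0.65 (0.86 ± 0.19), and *PTN*, a heparin-binding growth factor, by 1.21, 0.66, 0.46 and 0.69 (0.75 ± 0.15). All 4 were higher in proximal lung of every animal. None of these and *POSTN* had an adjusted p below 0.91 by edgeR.

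Complement component *C3* was at 212, 203, 518 and 691 CPM in proximal lung of WT replicates 1 and 2 and CF replicates 1 and 2, against 88.0, 134, 366 and 327 CPM in distal lung. It was higher in CF than in WT in both regions and higher in proximal lung in each animal, by 0.86 ± 0.17 (SE) on the log2 scale. Other genes were lower in proximal lung of every animal. The lanosterol synthase gene *LSS* differed by -0.46 and -0.23 in WT and -0.39 and -0.76 in CF (mean -0.46 ± 0.12, SE), and the angiotensin receptor gene *AGTR1* by -0.72, -0.54, -0.28 and -0.27 (-0.45 ± 0.12). *LOC105605603*, which RefSeq names *APLN* by its gene ID and which encodes the endothelial peptide apelin, differed by -0.36, -0.44, -0.45 and -0.36 (-0.40 ± 0.09). *COL6A6*, a collagen VI chain, was at 3.19, 2.45, 4.38 and 0.370 CPM in proximal and 9.26, 3.12, 15.6 and 2.79 CPM in distal lung, a mean difference of -1.65 ± 0.44 (SE) with an adjusted p of 0.91 by edgeR.

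Genes of ciliated, secretory and basal cells were not generally higher in the proximal samples at this age. They were higher in WT replicate 1 and CF replicate 2 and lower in WT replicate 2 and CF replicate 1. Of 41 ciliated cell genes tested of 44 listed, 41 were higher in proximal lung of WT replicate 1 and 37 in CF replicate 2, against 0 in WT replicate 2 and 1 in CF replicate 1. The medians over the list were 1.44, 1.98, -0.90 and -0.56 on the log2 scale in that order. Over all genes tested 50.4%, 47.1%, 53.5% and 51.5% were higher in proximal lung of the same animals, with medians between -0.06 and 0.03. None of the 41 was a DEG or had an unadjusted p under 0.05.

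*FOXJ1*, the transcription factor that drives motile cilia, was at 48.9 CPM in proximal and 18.7 CPM in distal lung of WT replicate 1, and at 128 and 26.4 CPM in CF replicate 2. In WT replicate 2 the order was turned, with 32.6 CPM in proximal and 64.5 CPM in distal lung, and in CF replicate 1 the values were 25.0 and 33.1 CPM. The dynein heavy chain gene *DNAH5* of the ciliary motor differed by 2.43 in WT replicate 1, -1.17 in WT replicate 2, -1.01 in CF replicate 1 and 1.70 in CF replicate 2, on the log2 scale. Distal lung held 6.65, 29.5, 19.7 and 5.01 CPM of *DNAH5* in that order. The distal library of WT replicate 2 held more of both transcripts than the other 3 distal libraries and than its own proximal library.

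Of 25 genes of secretory, goblet and gland cells tested, 24 were higher in proximal lung of WT replicate 1, 22 in CF replicate 2, 6 in WT replicate 2 and 7 in CF replicate 1, with list medians of 1.76, 2.59, -0.76 and -0.36. *SCGB3A2*, a secretoglobin of airway secretory cells, was at 329.9 CPM in proximal against 10.1 CPM in distal lung of WT replicate 1 and at 3367 against 35.1 CPM in CF replicate 2. In WT replicate 2 it was at 29.1 against 112 CPM and in CF replicate 1 at 78.7 against 105 CPM. Its mean log2 difference was 2.28 ± 2.27 (SE, 4 pairs), an error as large as the difference.

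*AGR2*, needed to fold mucins, and *LPO*, the lactoperoxidase of airway glands, had the same order of animals. *AGR2* differed by 5.72 in WT replicate 1, -3.16 in WT replicate 2, -0.50 in CF replicate 1 and 5.23 in CF replicate 2, and *LPO* by 5.17, -2.66, -0.46 and 5.42. *ITLN*, an intelectin gene outside the lists and chosen after its values were seen, was not read in distal lung of WT replicate 1. It stood at 25.8 CPM in proximal lung of that animal, and in CF replicate 2 at 165 CPM in proximal and 0.793 CPM in distal lung. In WT replicate 2 *ITLN* was lower in proximal lung, with a log2 difference of -3.84, and its values in CF replicate 1 are not given here. *TFF2* and *ALDH1A1* were the 2 members of the secretory list higher in proximal lung of all 4 animals, beside 6.75% of all genes.

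Among basal cell genes, several keratins and *TP63* were highest in CF replicate 2 proximal, but the list summed to most in CF replicate 1, at 1285 CPM in proximal and 1268 CPM in distal lung, against 1162 CPM in CF replicate 2 proximal. *KRT5*, a keratin that defines airway basal cells, was at 57.4 CPM there, against 1.01 to 4.74 CPM in the other 3 proximal libraries and 0.813 to 5.08 CPM in distal lung. *KRT15* was at 205 CPM there and at 19.97 CPM in WT replicate 1 proximal, with 1.02 to 11.8 CPM in the other 6 libraries. *TP63*, the transcription factor of basal cells, was at 8.51 CPM in CF replicate 2 proximal and at 0.221 to 3.52 CPM elsewhere. *SNAI2*, a transcription factor of the same list, went the other way in CF replicate 2, with 4.81 CPM in proximal and 39.5 CPM in distal lung. Of the 21 basal cell genes tested, 15, 4, 6 and 14 were higher in proximal lung and the medians were 0.23, -0.71, -0.35 and 2.13 in WT replicates 1 and 2 and CF replicates 1 and 2.

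**Figure D2:**
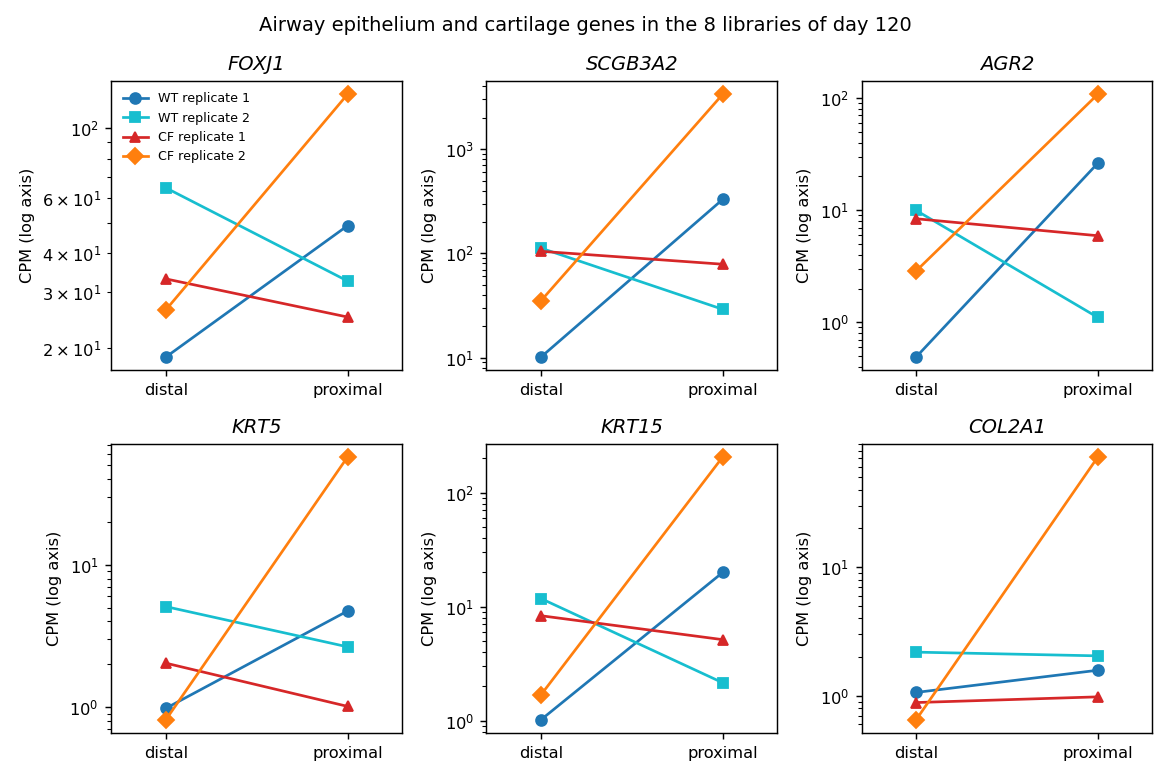
CPM on a log axis of *FOXJ1*, *SCGB3A2*, *AGR2*, *KRT5*, *KRT15* and *COL2A1* in distal and proximal lung, with a line for each of the 4 animals. The lines of WT replicate 1 and CF replicate 2 rise towards proximal lung in all 6 genes, those of WT replicate 2 fall in all 6, and *COL2A1* exceeds 2.18 CPM in CF replicate 2 proximal only.

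High levels of the cartilage collagens *COL2A1* and *COL9A2* were read in 1 library. *COL2A1*, the main collagen of cartilage, was at 71.8 CPM in CF replicate 2 proximal and at 0.651 to 2.18 CPM in the other 7 libraries, and *COL9A2*, another cartilage collagen, was at 9.17 CPM there against 0.117 to 0.992 CPM. The whole cartilage list summed to 505 CPM in CF replicate 2 proximal and to 177 to 268 CPM in the other 7 libraries. The 19 cartilage genes tested had medians of 0.38 and -0.14 in WT replicates 1 and 2 and of 0.15 and 0.73 in CF replicates 1 and 2. In the same order, 12, 8, 15 and 14 of the 19 were higher in proximal lung. *ACAN*, which encodes the large cartilage proteoglycan, did not share the pattern, with 9.94 CPM in proximal and 2.69 CPM in distal lung of WT replicate 1 and between 9.93 and 17.4 CPM in the remaining 6.

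Markers of tissues that lie near the lung were summed in each library. Squamous and oesophageal epithelium genes summed to 171 CPM in CF replicate 2 proximal and 100 CPM in its distal library, against 54.7 to 70.5 CPM in the other 6. Striated muscle genes summed to 188 and 115 CPM there, against 42.0 to 98.4 CPM. Thyroid follicle genes summed to 104 CPM in CF replicate 2 proximal and to 43.5 to 63.3 CPM elsewhere. Their part in the airway and cartilage values was not tested.

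Several surfactant genes were higher in the proximal samples of all 4 animals, while most of the type 2 cell list was higher in 3 animals only. Of 23 type 2 cell genes tested of 28 listed, 8 were higher in proximal lung in 4 of 4 pairs and 0 were lower in 4 of 4, beside 6.75% and 5.89% of all genes. At an unadjusted p under 0.05, 6 were higher and 0 lower, and none was a DEG. In WT replicates 1 and 2 and CF replicate 1, 19, 20 and 18 of the 23 were higher in proximal lung, with medians of 0.37, 0.32 and 0.17, and in CF replicate 2 it was 9 of 23, with a median of -0.23.

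*SFTPB*, the surfactant protein B needed for breathing at birth, was at 1043, 857, 1775 and 1945 CPM in proximal lung of WT replicates 1 and 2 and CF replicates 1 and 2. In distal lung it was at 523, 568, 1687 and 1636 CPM in the same order. The levels were higher in CF than in WT in both regions, and the region difference was 1.00 and 0.59 in WT, and 0.07 and 0.25 in CF. *SFTPD*, a collectin of the surfactant, differed by 0.67 and 0.50 in WT and by 0.17 and 0.79 in CF, with a mean of 0.53 ± 0.14 (SE).

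*SFTPC*, a surfactant protein that defines type 2 cells, was at 2333 and 1644 CPM in proximal and distal lung of WT replicate 1, 3384 and 2158 CPM in WT replicate 2 and 2779 and 2181 CPM in CF replicate 1. CF replicate 2 proximal held 16049 CPM and its distal library 4476 CPM, so that the library with most airway and cartilage transcript also held most *SFTPC*. *SFTPA1* was at 554 and 222 CPM in WT replicate 1 and 459 and 185 CPM in WT replicate 2, but at 1589 and 1197 CPM in CF replicate 1 and 1192 and 1226 CPM in CF replicate 2. Its region difference of 1.32 and 1.31 in WT was thus 0.41 and -0.04 in CF.

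*NAPSA*, the protease that processes surfactant protein B, was at 25.0, 12.7, 79.1 and 71.8 CPM in proximal lung of WT replicates 1 and 2 and CF replicates 1 and 2, and at 8.89, 4.56, 50.7 and 45.1 CPM in distal lung. Its mean difference was 1.06 ± 0.20 (SE), with an adjusted p of 0.91 by edgeR and 0.0368 by DESeq2. *FABP5*, a fatty acid carrier, was higher in proximal lung by 0.40, 0.58, 0.72 and 1.07. The list did not move as 1 block in CF replicate 2, where *SCD*, the stearoyl-CoA desaturase of lipid synthesis, was at 0.555 CPM in proximal and 14.5 CPM in distal lung, against 22.4 to 89.4 CPM in the other animals, and *CSF2RB*, a receptor chain for the growth factor GM-CSF, at 3.23 and 38.1 CPM against 67.8 to 99.4 CPM.

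**Figure D3:**
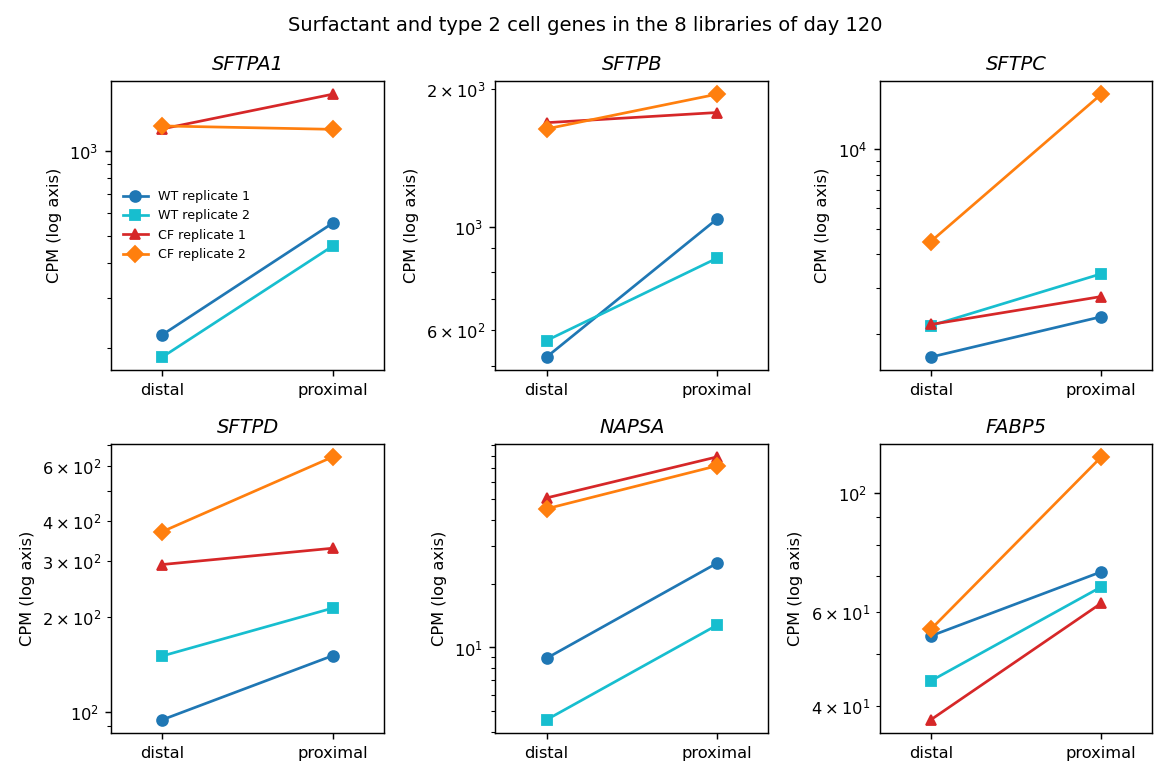
CPM on a log axis of *SFTPA1*, *SFTPB*, *SFTPC*, *SFTPD*, *NAPSA* and *FABP5* in distal and proximal lung, with a line for each of the 4 animals. Every line rises towards proximal lung except that of *SFTPA1* in CF replicate 2 (1226 and 1192 CPM), and *SFTPC* reaches 16049 CPM in CF replicate 2 proximal.

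Of 24 type 1 cell genes tested, 6 were lower in proximal lung in 4 of 4 pairs, beside 5.89% of all genes. Only 1 of the list was higher in 4 of 4, beside 6.75%. The medians of the list were -0.00 and -0.13 in WT and -0.06 and -0.42 in CF. *AGER*, a receptor abundant on type 1 cells, was at 616, 397, 544 and 1181 CPM in proximal and 577, 384, 511 and 870 CPM in distal lung, a mean log2 difference of 0.17 ± 0.13 (SE). *PDPN*, the membrane protein podoplanin, differed by -0.23 and -0.14 in WT and -0.05 and -0.47 in CF. *CAV1*, the main caveolar protein, was at 9.63 CPM in CF replicate 2 proximal against 191 CPM in its distal library and 358 to 482 CPM in the other 6.

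**Figure D4:**
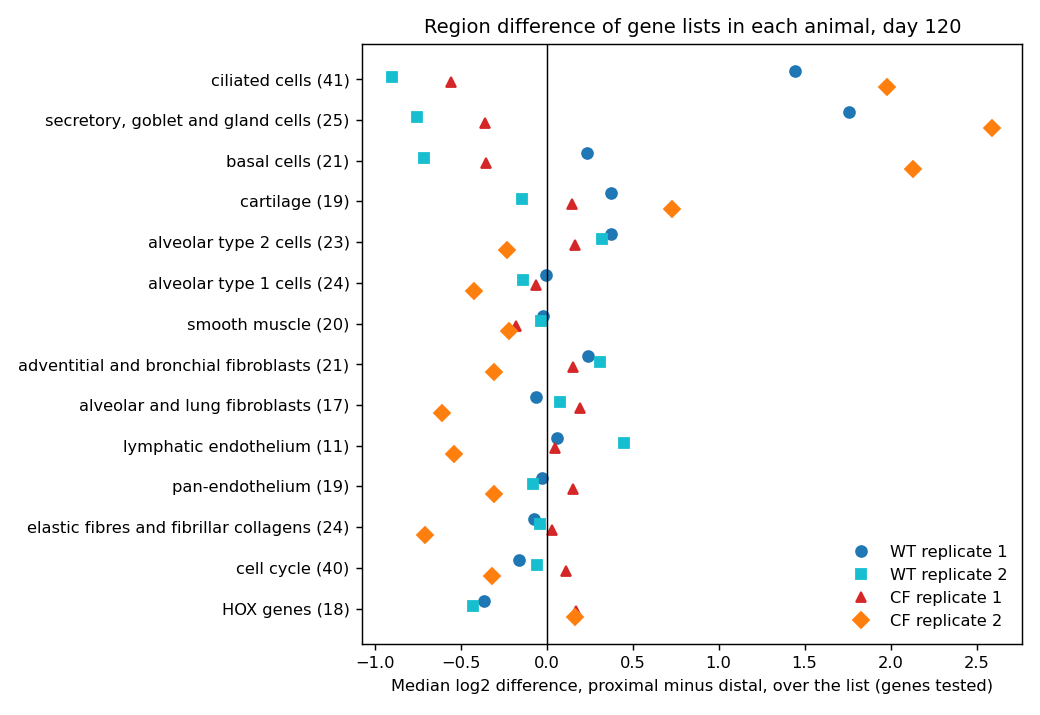
Median log2 difference, proximal minus distal, over each gene list in the 4 animals, with the number of genes tested in brackets. Ciliated and secretory lists lie to the right of 0 for WT replicate 1 and CF replicate 2 and to the left for the other 2 animals, while CF replicate 2 lies left of the others for elastic fibres and fibrillar collagens (-0.71).

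Of 21 adventitial and bronchial fibroblast genes tested, 5 were higher in proximal lung of all 4 animals, beside 6.75% of all genes. Only 1 of the list, *SFRP2*, was lower in all 4, beside 5.89%. The medians were 0.24 and 0.31 in WT, 0.15 in CF replicate 1 and -0.31 in CF replicate 2. *LUM*, the proteoglycan lumican, was at 66.0 and 27.5 CPM in proximal and distal lung of WT replicate 1 and at 91.8 and 35.2 CPM in WT replicate 2. CF replicate 1 held 25.6 and 23.2 CPM and CF replicate 2 held 57.3 and 53.3 CPM, so that the region difference was seen in WT and was near 0 in both CF animals.

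*TNXB*, the matrix protein tenascin X, was at 42.6, 53.2 and 33.8 CPM in proximal lung of WT replicates 1 and 2 and CF replicate 1 and at 15.2, 21.9 and 15.9 CPM in their distal lung. In CF replicate 2 the order was turned, with 19.0 CPM in proximal and 49.5 CPM in distal lung. *MFAP5*, a microfibril protein, was likewise at 91.4, 96.9 and 73.7 CPM in proximal and 50.7, 45.9 and 33.6 CPM in distal lung of those 3 animals, but at 74.1 and 126 CPM in CF replicate 2. *LAMA2*, a basement membrane chain, was at 12.5 to 13.6 CPM in the first 3 proximal libraries, 2.73 to 5.21 CPM in their distal libraries, and 4.97 and 12.5 CPM in proximal and distal lung of CF replicate 2. For *TNXB* and *LAMA2* the distal library of CF replicate 2 lay within the range of the 4 proximal libraries, and for *MFAP5* it lay above all of them.

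Of 20 smooth muscle genes tested, 6 were lower in 4 of 4 pairs, beside 5.89% of all genes. In the list 0 were higher in 4 of 4, beside 6.75%. In WT replicates 1 and 2 the list was balanced, with 10 and 9 of 20 higher in proximal lung and medians of -0.02 and -0.03, and in CF replicates 1 and 2 it was 3 and 5 of 20, with -0.18 and -0.22. *ACTA2*, smooth muscle actin, was at 321, 208, 548 and 780 CPM in proximal and 369, 260, 773 and 807 CPM in distal lung, a mean log2 difference of -0.27 ± 0.12 (SE), and *CNN1*, calponin, differed by -0.15, -0.57, -0.87 and -0.20. *MYLK*, the kinase of smooth muscle contraction, differed by 0.27, 0.31, 0.08 and -0.65. Elastic fibre and fibrillar collagen genes had medians of -0.07 and -0.04 in WT, 0.03 in CF replicate 1 and -0.71 in CF replicate 2.

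Of 11 lymphatic endothelium genes tested, 7 were higher in proximal lung in each of WT replicates 1 and 2 and CF replicate 1, and 1 in CF replicate 2, with medians of 0.06, 0.45, 0.05 and -0.54. *PROX1*, the transcription factor that makes endothelium lymphatic, was at 7.02, 10.1 and 7.49 CPM in proximal and 2.94, 5.95 and 4.49 CPM in distal lung of WT replicates 1 and 2 and CF replicate 1, but at 1.90 and 5.75 CPM in CF replicate 2. *MMRN1*, a secreted multimerin of lymphatic vessels, differed by 0.80, 0.65, 0.72 and -1.64 in WT replicates 1 and 2 and CF replicates 1 and 2, and *CCL21*, the chemokine that lymphatic vessels use to draw in immune cells, by 1.01, 0.81, 2.13 and -0.36. *LYVE1*, a hyaluronan receptor of lymphatic vessels, differed by -0.16, 0.58, -0.92 and -0.32, so that the list held both directions. None of the 11 had an unadjusted p under 0.05. Capillary and general endothelium lists had medians between -0.31 and 0.15 in the 4 animals.

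The signalling lists held no DEG. Hedgehog genes had medians of 0.23 and 0.04 in WT, 0.07 in CF replicate 1 and -0.70 in CF replicate 2, and 1 of 14, the effector *GLI2*, was lower in 4 of 4 pairs (-0.64, -0.23, -0.39 and -0.70). Of 28 WNT genes, 3 were higher and 1 lower in all 4 animals, beside 6.75% and 5.89% of all genes. FGF genes had medians of -0.04, -0.10, 0.06 and -0.61, and Notch genes -0.02, -0.29, 0.05 and -0.01. Lung tip progenitor and endoderm factors had 0.17, -0.43, -0.10 and 0.45, the same signs by animal as in the ciliated and secretory lists. Cell cycle genes had -0.16, -0.05, 0.11 and -0.32.

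The *HOX* gene that DESeq2 called was *LOC105606599*, which lies on the sheep Oar_v4.0 assembly at chromosome 4, 68845166 to 68861962, in the *HOXA* cluster, and which RefSeq names *HOXA7* by its gene ID. It lies wholly within the annotated span of *HOXA9* (68836590 to 68867690) and its exons share 85 bases with an exon of *HOXA3*. Reads may be lost or split between these genes, so its level is uncertain and its counts may hold more than 1 *HOXA* transcript. It was at 3.22 CPM in proximal and 41.3 CPM in distal lung of WT replicate 1, 2.87 and 48.7 CPM in WT replicate 2, and 12.5 and 63.2 CPM in CF replicate 1. In CF replicate 2 it was at 1.13 CPM in proximal and only 2.09 CPM in distal lung. The mean log2 difference was -2.78 ± 0.59 (SE, 4 pairs), with an adjusted p of 0.91 by edgeR and 7.38e-04 by DESeq2.

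Other *HOX* genes differed in direction. *HOXA9*, read at 0 to 1.48 CPM in proximal and 0.264 to 4.92 CPM in distal lung, was lower in proximal lung of all 4 animals (-0.86 and -1.62 in WT, -1.73 and -5.14 in CF, mean -1.92 ± 0.71, SE) and in 15 of 16 pairs at the other ages. *HOXA4* differed by 0.37 and 0.35 in WT and 0.17 and 0.32 in CF, and *HOXA3* by 0.04, 0.00, 0.23 and 0.15. *HOXB8*, of the *HOXB* cluster, was at 0.234 and 0.221 CPM in proximal against 2.77 and 2.80 CPM in distal lung of WT, and at 1.55 and 1.18 CPM in CF replicate 1 and 0.578 and 0.712 CPM in CF replicate 2. Over the 18 *HOX* genes tested the medians were -0.37 and -0.43 in WT and 0.17 and 0.16 in CF.

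To ask where the day 120 libraries lie without choosing genes by them, region was tested over the 16 pairs of libraries at 65, 80 and 100 days and term, a test added after the day 120 values had been seen. The 2 WT pairs at 100 days carry 1 animal label and were entered as separate animals, so its p-values and counts of pairs may rest on fewer animals than pairs. It called 5 of 19994 genes (0.025%), with 640 (3.2%) at an unadjusted p under 0.05. Those described here are *MLIP*, higher in proximal lung (0.01% of genes were called in that direction), and *LOC105606599*, *LOC101122940*, which RefSeq names *A2M*, and *ANGPTL1*, lower in proximal lung (0.015%). All 4 had the same sign at day 120 in WT replicates 1 and 2 and in CF replicate 1, and 2 of the 4, *MLIP* and *LOC105606599*, had it in CF replicate 2.

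*MLIP*, which encodes a protein that binds lamin and is best known in muscle, was higher in proximal lung in 16 of 16 pairs at the other ages, which are the pairs that chose it. At day 120, in pairs that did not, it was at 0.994, 1.296, 0.912 and 1.21 CPM in proximal lung of WT replicates 1 and 2 and CF replicates 1 and 2, and at 0, 0.198, 0.0843 and 1.07 CPM in distal lung. *LOC101122940*, whose product alpha-2-macroglobulin is a protease inhibitor of plasma, was at 227, 141 and 44.0 CPM in proximal and 397, 472 and 170 CPM in distal lung of the first 3 animals and at 57.2 and 30.1 CPM in CF replicate 2. *LOC105606599* was lower in proximal lung in every pair at every age, which is no independent count, since all of these pairs had a part in choosing it. The distal library of CF replicate 2 held the proximal level of *MLIP* and *LOC105606599*, and its level of *LOC101122940* lay below every proximal library.

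*NRCAM*, a neuronal cell adhesion molecule, had the same arrangement. It was at 7.78, 10.8, 12.9 and 10.4 CPM in proximal lung and at 37.5, 53.5, 41.9 and 8.15 CPM in distal lung, with CF replicate 2 last in both. At 100 days the 4 distal libraries held 49.5 to 51.6 CPM and the 4 proximal libraries 12.6 to 28.5 CPM, but the regions overlapped at 65 days, with 40.5 to 80.5 CPM in distal and 37.8 to 72.1 CPM in proximal lung, at 80 days, and at term, with 2.63 to 9.20 and 1.39 to 4.93 CPM. It was lower in proximal lung in 13 of 16 pairs at the other ages and higher in 3. *TWIST1*, a transcription factor of mesenchyme, differed from these, since CF replicate 2 had the largest difference of the 4 animals, with 9.53 CPM in proximal and 1.75 CPM in distal lung, against 2.75 and 1.39, 3.14 and 2.21, and 3.68 and 0.759 CPM in WT replicates 1 and 2 and CF replicate 1. It was higher in proximal lung in 15 of 16 pairs at the other ages.

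**Figure D5:**
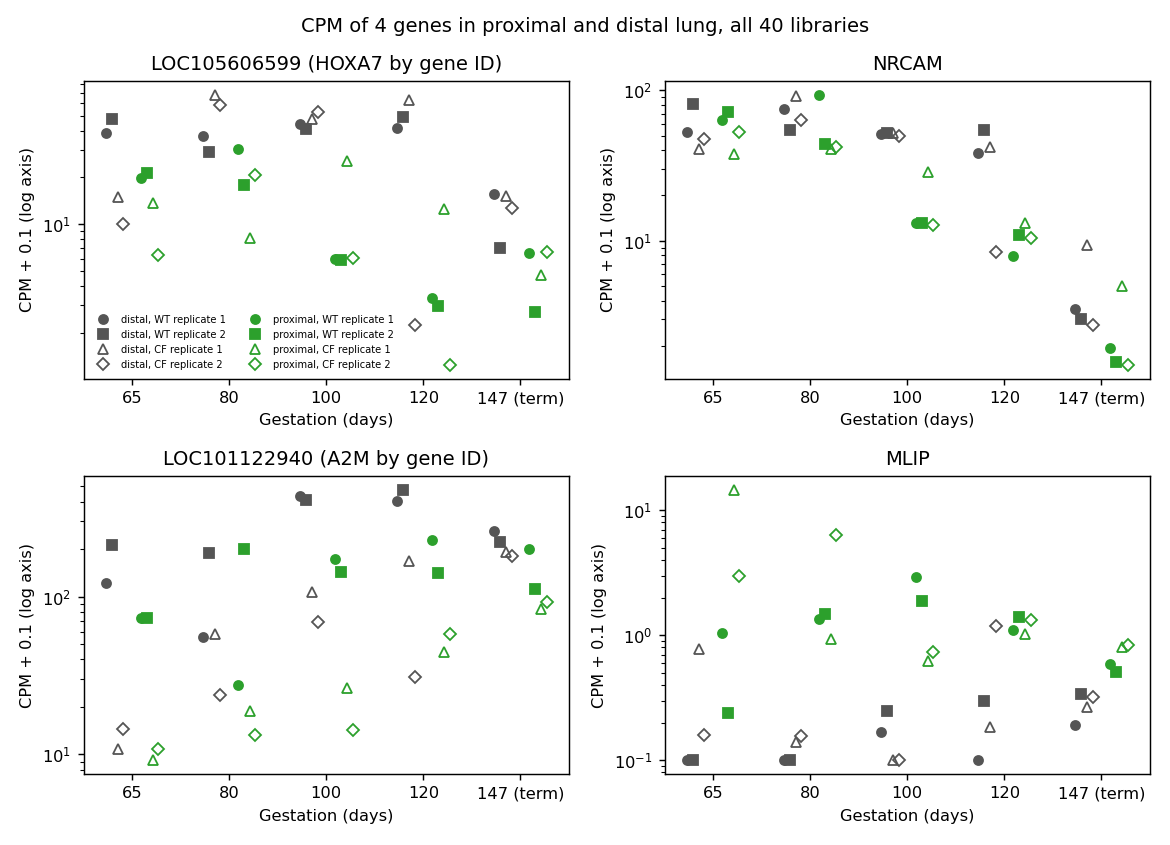
CPM plus 0.1 on a log axis of *LOC105606599*, *NRCAM*, *LOC101122940* and *MLIP* against gestation in days, in all 40 libraries, scaled together, with green for proximal, grey for distal, filled points for WT and open points for CF. At day 120 the grey open diamond, the distal library of CF replicate 2, lies among or beyond the green points in each panel, while the 3 other distal libraries lie apart from the green points except for *LOC101122940*, where CF replicate 1 distal (169 CPM) lies among them.

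Without CF replicate 2, 3 genes of 17110 were DEGs by edgeR (0.0175%). *TNXB* (1.28 ± 0.11, SE, adjusted p = 0.0442) and *MFAP5* (1.02 ± 0.08, adjusted p = 0.0442) were higher and *NRCAM* (-2.08 ± 0.14, adjusted p = 0.0431) was lower in proximal lung of 3 of 3 animals. Leaving out any other animal gave 0 DEGs. Without CF replicate 2, with the effects split by genotype, 21 genes were DEGs in WT (0.123%) and 2 in CF (0.0117%), where the lone CF pair has no spread of its own and is assumed to vary like the WT pairs.

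Within a fit of all 8 libraries that gave each genotype its own region effect, no gene was a DEG in WT (0%, with 355 genes or 2% at an unadjusted p under 0.05) or in CF (0%, with 560 genes or 3.16%). DESeq2 called 25 genes in WT (0.141%) and 1 in CF (0.00564%). In that fit the spread between the 2 CF animals sets the error for WT as well. With the 4 WT libraries fitted alone, 22 of 16969 genes were DEGs (0.13%), 12 higher and 10 lower in proximal lung. With the 4 CF libraries alone none was (0 of 18510, 0%, with 77 genes at an unadjusted p under 0.05). Each of these 2 fits has 2 pairs and 1 residual degree of freedom, so their p-values and SEs rest on very few animals. Leaving out only CF replicate 2 gives no separate check of the 22 WT genes, since the spread then comes from the same 2 WT pairs.

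Of the 12 genes higher in WT proximal lung, 5 were members of the adventitial and bronchial fibroblast list, *PI16* (1.70 ± 0.19, SE), *TNXB* (1.36 ± 0.11), *LUM* (1.31 ± 0.09), *MFAP5* (0.95 ± 0.09) and *DPT* (0.91 ± 0.10), with adjusted p between 0.0112 and 0.0498 by edgeR. *PI16* differed by 2.08 and 1.38 in WT and by 0.14 and -0.41 in CF. *MYOC* (2.10 ± 0.20) and *CCDC80* (0.90 ± 0.09), outside that list, were also higher, and *CCDC80* differed by 0.89 and 0.94 in WT and 0.63 and -0.22 in CF. *SFTPA1* (1.3 ± 0.10), *TFF2* (1.27 ± 0.12) and *CCL21* (0.90 ± 0.10) were also among them. Those lower included *LOC105606599* (-3.90 ± 0.17, adjusted p = 0.00224), *NRCAM* (-2.30 ± 0.12, adjusted p = 0.00395), *CLDN11*, a tight junction claudin (-1.08 ± 0.10, with -1.04 and -1.09 in WT and 0.07 and -0.16 in CF), and *MIF*, a cytokine (-1.78 ± 0.19). Of the 22 genes, 14 had the same sign in CF replicate 1 and 8 in CF replicate 2.

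The region effects of the genotypes did not differ in any gene at the threshold. No gene was called for CF minus WT (0 of 17739, 0%, smallest adjusted p 0.77), 574 genes (3.24%) had an unadjusted p under 0.05, and DESeq2 called 27 (0.152%), 26 of them with a positive difference, proximal minus distal in CF less the same in WT. The gene with the smallest p was *MIF*. It was at 28.1 and 72.0 CPM in proximal and distal lung of WT replicate 1, 24.2 and 109 CPM in WT replicate 2, 41.2 and 21.7 CPM in CF replicate 1 and 95.4 and 40.3 CPM in CF replicate 2, so that it was lower in proximal lung in WT and higher in CF (difference of differences 2.85 ± 0.35, SE, adjusted p = 0.77). *KLF2*, a flow-sensitive endothelial transcription factor, differed by -0.79 and -1.73 in WT and 0.94 and 1.04 in CF. *ID3*, an inhibitor of DNA binding, differed by -0.74, -0.89, 0.42 and 0.58. The median differences by gene length, given above, were higher in the longest than in the shortest genes in both WT animals. They were lower in both CF animals, and the part of gene length in the differences between genotypes was not tested.

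Some transcripts abundant in the other animals were far lower in CF replicate 2 proximal, of which 3 chosen after their values were seen are given. *IGF2R*, the receptor that clears IGF2, was at 5.62 CPM there, 190 CPM in its distal library and 311 to 703 CPM in the other 6. *PEG10*, an imprinted gene, was at 0.497 CPM there, 20.5 CPM in its distal library and 94.8 to 246 CPM elsewhere, and *PODXL*, which encodes podocalyxin, at 0.879, 34.8 and 44.0 to 112 CPM. In each case the distal library of the same animal lay below the other 6 and above its proximal partner. In CF replicate 1, large differences included *CCL21* (2.13), *LAMA2* (1.81), *LOC105606599* (-2.34) and *LOC101122940* (-1.94).

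Region effects at 100 days, 120 days and term were fitted together over 24 libraries of 12 pairs and 19467 genes. The WT pairs at 100 days were again kept as 2. No gene differed in its region effect between day 120 and day 100 (0%, smallest adjusted p 0.60 by edgeR), with 665 genes (3.42%) at an unadjusted p under 0.05, or between day 120 and term (0%, smallest adjusted p 0.56), with 1245 genes (6.4%). DESeq2 was not run on these 2 comparisons. The day 120 effects given here are means that include CF replicate 2, and without it both counts were also 0 of 19671 genes.

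At 100 days *TFF2* was read at only 0.449 to 0.937 CPM in distal and 0.227 to 0.734 CPM in proximal lung. Its region effect at that age, -0.65 ± 0.28 (SE), therefore rests on low counts. The effect was 1.17 ± 0.19 at 120 days and -0.00 ± 0.19 at term, with adjusted p by edgeR of 0.83 and 0.56 for the 2 differences. *SFRP4* had -0.51 ± 0.37, 1.64 ± 0.40 and -0.37 ± 0.38, and *POSTN* -0.32 ± 0.34, 1.40 ± 0.34 and -0.05 ± 0.34. *SFTPB* kept 1 direction, with 0.40 ± 0.15, 0.48 ± 0.15 and 0.27 ± 0.15, and was higher in proximal lung in 15 of 16 pairs at ages other than 120 days. *C3* had 1.15 ± 0.17, 0.86 ± 0.17 and 0.14 ± 0.16. *LOC105606599* had -2.45 ± 0.46, -2.78 ± 0.48 and -1.34 ± 0.43.

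The ciliated cell list varied between animals at other ages too. With all 40 libraries scaled together, the median of the ciliated cell list ranged over 4 pairs from -1.26 to 1.24 at 65 days, from -0.36 to 1.86 at 80 days, from -0.42 to 0.69 at 100 days, from -0.91 to 1.94 at 120 days and from -0.43 to 0.13 at term. At term the secretory list ranged from -0.65 to -0.35 and the basal list from -0.41 to -0.37, below 0 in 4 of 4 pairs, against -0.77 to 2.56 and -0.72 to 2.10 at 120 days. The type 2 cell list ranged from -0.04 to 0.12 at 100 days, from -0.26 to 0.36 at 120 days and from 0.03 to 0.41 at term.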

How the data were processed

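RNA from lung pieces was converted with oligo-dT priming and sequenced as 100 bp paired reads on a NovaSeq. The authors aligned reads to Oar_v4.0 with STAR (2.6 in the submitters' processing notes) and counted them with featureCounts 1.6.3. The deposited values are raw counts of 24478 genes. Strand, annotation release and mate handling are not given in the sources used here. Of counts from 1 to 20, 73.5% to 85.8% per library were even, so mates may count separately and depth overstates the fragments read. A table repeating the CF columns was not used.

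Libraries were paired by the animal in their labels. By root mean square log2 difference, 6 of 8 libraries lay nearest to the other region of their animal, and WT replicate 1 proximal and CF replicate 2 distal did not. Counts were filtered (filterByExpr, minimum 10, total 15), scaled by TMM and fitted in R 4.3.3 with edgeR 4.0.16 (glmQLFit, glmQLFTest, legacy dispersion), with DESeq2 1.42.0 and limma 3.58.1 as alternatives. Prior counts were 0.5 for pair differences and 2 for components. The script was tested on simulated data.

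The comparison, the 36 gene lists (801 entries, 55 without a row, 91 below the filter, 24 matched by RefSeq gene ID) and the tests were chosen with earlier results of these data known. Named genes were to be the 10 DEGs with the largest change in each direction, not LOC genes, with average log2 CPM of 1 or more and 1 sign in 4 pairs, 4 each way in the genotype and age comparisons, and list members. With no DEG, other genes named were chosen after their values were seen. RefSeq names come from ARS-UI_Ramb_v3.0. No sequence was used. One gene called at the other ages is not reported here.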

Additional observations from a re-analysis of the deposited data

Results flagged for a closer look

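In 2 lists a single animal lay far from the other 3, by the gap to its neighbour over the range of the 4 medians. CF replicate 2 had -0.71 for elastic fibres and fibrillar collagens, with the others between -0.07 and 0.03, and 1.17 for squamous and oesophageal epithelium, with the others between -0.20 and 0.03. Chance flags about 1 list in 20, and 36 lists were examined.

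In 5 lists both WT medians lay on 1 side of 0 and both CF medians on the other, a difference that was not tested. With 2 animals a genotype and 36 lists, several lists can divide this way by chance alone. *HOX* genes had -0.37 and -0.43 in WT and 0.17 and 0.16 in CF. Lymphocyte genes had -0.17 and -0.46 in WT and 0.06 and 0.49 in CF. Erythroid genes had -0.30 and -0.13 in WT and 0.11 and 0.19 in CF. Thyroid follicle genes had -0.054 and -0.12 in WT and 0.09 and 0.21 in CF. Squamous and oesophageal epithelium genes had -0.10 and -0.20 in WT and 0.03 and 1.17 in CF.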

How the results depend on the processing

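The count of 0 DEGs over the 4 animals held with RLE, no filter, the bias-adjusted quasi-likelihood, equal depth and limma voom. It also held with robust quasi-likelihood, library weights and removal of the length trend, added after seeing the data. An adjusted p of 0.001 and glmTreat also gave 0, but both are stricter than the main test and could not give more. DESeq2 gave 5. With animals left out the count was 0 to 3, and with the length trend also removed it was 3 without CF replicate 2. Same-numbered libraries are from 1 animal, so the block was kept, and the fit without the replicate block also gave 0, for every comparison. The WT count was 25 by DESeq2, 22 with WT alone and 0 to 21 with animals left out (10 without CF replicate 1, 21 without CF replicate 2). The CF count was 1 by DESeq2 and 0 to 4960, and CF minus WT was 27 by DESeq2 and 0 to 4538. The counts of 4960 and 4538 are those without CF replicate 1, where CF replicate 2 is the lone CF pair and is assumed to vary like the WT pairs. Without CF replicate 2 they were 2 and 0. Both age comparisons stayed at 0 throughout. None of the genes followed under these settings changed sign. Of the list medians followed, 171 were marked as the same and 9 as moved. With 4 pairs there are 3 residual degrees of freedom, and absence of DEGs does not show that the regions are alike.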
